A study of Mus musculus with 2 samples.

Results

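Foxp3-positive regulatory T cells (Treg) were taken from single-cell 5' RNA sequencing of tumours and lymph nodes as every cell with a value above 0 for Foxp3 and for Cd3e, a subunit of the T cell receptor complex, and a value of 0 for the CD8 chain gene Cd8b1 and the B cell receptor gene Cd79a. They were thus chosen by 4 measured values, which serve below as a description only. The rule found 181 cells of 12458. Of these, 88 came from tumour, 60 from the tumour-draining lymph node (dLN) and 33 from a non-draining lymph node (ndLN).

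The cells came from 4 C57Bl6 mice that carried MC38-OVAdim tumours, a colon carcinoma line with the ovalbumin antigen, under the skin of the flank. In 2 mice, KO1 and KO2, Havcr2, the gene of the inhibitory receptor TIM-3, was knocked out, and 2 mice with the Havcr2fl/fl genotype, WT1 and WT2, were their controls, so a floxed locus was part of the control genotype as well. Which Cre driver or cell type the deletion was made in, and how old the mice were, is given by no source used here. Tumour, dLN and ndLN of every mouse gave 12 samples of CD45-positive cells sorted with enrichment of dendritic cells, and each of 2 droplet channels held 1 KO and 1 WT mouse. Tumours passed through a density gradient as well as enzymatic digestion and nodes through digestion, so tissue and preparation cannot be told apart. Levels were compared between samples of 1 mouse and tissue, and cells of 1 sample are not replicates. The dLN and ndLN of a mouse entered as separate samples.

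Treg are CD4 T cells that hold down immune responses. The transcription factor Foxp3 fixes their identity, the high-affinity interleukin 2 receptor chain Il2ra lets them take up interleukin 2, and Ctla4 strips costimulatory ligands from antigen-presenting cells. Treg that recirculate through lymph nodes carry the homing receptor Ccr7, whereas Treg in tissues and tumours commonly lose it and carry TNF receptors such as Tnfrsf4 (OX40), Tnfrsf9 (4-1BB) and Tnfrsf18 (GITR) together with inhibitory and cytotoxic genes. In mm10 Foxp3 occupies bases 7573644 to 7595245 of chromosome X, plus strand.

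Levels are given as the mean number of unique molecular identifiers (UMIs) of a gene per 10000 UMIs of a cell, over the Treg of 1 mouse and tissue. The other markers of the label were found in most members. At least 1 of Ikzf2, Il2ra and Tnfrsf4 had a UMI in 175 of 181 cells, Ikzf2 (Helios) in 147, Il2ra in 137 and Tnfrsf4 in 164. Cd4 itself had a UMI in 114. Foxp3 was at 10.6 and 8.69 UMIs per 10000 in KO tumours and 6.12 and 4.42 in WT tumours, beside 4.43 to 7.91 in the 8 node samples. Of 2647 B cells, which should lack the gene, 1 had a Foxp3 UMI, at a median depth of 3201 UMIs against 5758 in the Treg. These B cells had Cd79a and no Cd3e, so cells with both genes were left out of this count.

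The rule was met narrowly by 57 members with a single Foxp3 UMI, 15 of them in tumour, and 124 members had 2 or more. Just outside it, 33 cells with Foxp3 lacked Cd3e, 38 had Cd8b1 and 11 had Cd79a without Cd8b1. A further 49 T cells without Foxp3, Cd8b1 and Cd79a had both Ikzf2 and Il2ra. Barcodes shared by both channels numbered 65, of which 4 belonged to members.

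The samples were small and unequal. Tumours gave 15 and 8 Treg in KO and 58 and 7 in WT. In dLN there were 12 and 13 in KO and 22 and 13 in WT, and in ndLN 6 and 8 in KO and 9 and 10 in WT. WT1 tumour alone thus held 32.0% of all Treg. The median depth of a member was 6409.5 UMIs for tumour, 5079.5 for dLN and 3977 for ndLN, and the summed UMIs of a sample ran from 40841 to 663923. The median share of mitochondrial UMIs was 1.14% in tumour, 2.45% in dLN and 2.64% in ndLN.

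Markers of other cell types were found in tumour Treg as well. The 12 macrophage and monocyte markers, which include Lyz2, Csf1r, the complement C1q genes and Apoe, summed to 21.0 and 23.7 UMIs per 10000 in KO and 45.6 and 83.0 in WT tumour Treg, against 0.486 to 1.73 in node Treg, and 10 of the 12 passed the tumour-node test described below. Relative to myeloid cells of the same tumours this was 6.10% and 7.10% of the level in KO and 15.1% and 32.6% in WT, the last in a sample of 7 cells. At least 3 myeloid or B cell markers were found in 27 of 88 tumour and 4 of 93 node members. Dendritic cell markers, among them Cd74 and H2-Aa, summed to 40.4 to 115.8 in tumour Treg and 1.55 to 125.5 in node Treg, where the 2 highest samples, 125.5 and 99.1, were dLN and ndLN of KO2. CD8 T cell markers summed to 3.42 to 33.5 in tumour and 0.649 to 15.5 in node Treg, with Cd8b1 at 0 by the rule. Natural killer cell markers summed to 1.81 to 9.0 in tumour and 0 to 2.60 in node Treg, with Ncr1, Eomes and Klre1 at 0, and B cell markers to 0.109 to 0.728 and 0 to 1.23, with Cd79a at 0 by the rule. The part of these markers in the results below was not tested beyond the values given.

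Treg made up a larger share of T cells without Cd8b1 in tumour than in nodes. Because a UMI of Foxp3 is found more often in a deep cell, each cell with Cd3e, CD8 T cells included, was thinned to 1500 UMIs. The whole rule, Cd3e included, was then applied again, and 59 shallower cells were left out. A CD8 T cell whose Cd8b1 UMIs were lost by thinning could thus count as a T cell without Cd8b1. T cells without Cd8b1 in WT1 ndLN numbered 116 after thinning and 112 with all UMIs. CD8 T cells numbered 223 in tumour, 1031 in dLN and 880 in ndLN, and their part in the thinned shares was not tested. Shares were then 25% and 35.3% in KO and 29.6% and 27.3% in WT tumours. In dLN they were 4.88% and 3.16% in KO and 3.78% and 1.12% in WT, and in ndLN 3.48% and 2.01% in KO and 5.17% and 2.89% in WT. Every tumour value lay above every node value. The mean over mice was 29.3% ± 4.42 in tumour and 3.31% ± 1.20 in nodes (SD, n = 4 mice), and a two-sided exact permutation test gave p = 0.0286, the smallest that 4 against 4 values allow. Paired within mice, the exact p was 0.125, the smallest that 4 pairs allow. Without thinning the shares were 30%, 32%, 57.4% and 29.2% in KO1, KO2, WT1 and WT2 tumours and 4.65% to 11.1% in nodes. The sort for CD45 with enrichment of dendritic cells sets how many T cells of each kind were captured, so these are shares of the T cells sequenced.

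**Figure D1:**
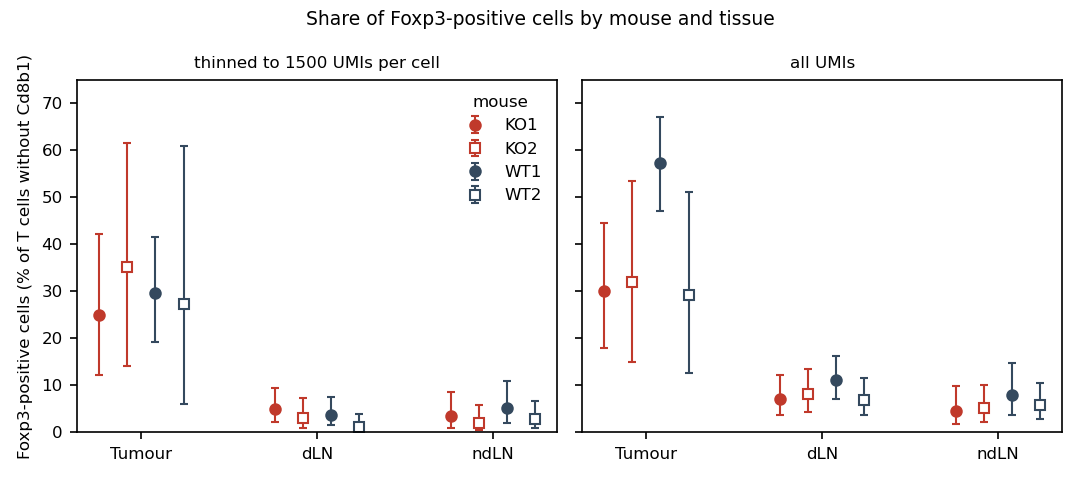
Foxp3-positive cells as a percentage of T cells without Cd8b1 in each mouse (marker) and tissue (x axis), thinned to 1500 UMIs per cell (left) and with all UMIs (right), with exact 95% binomial intervals that cover counting error only. Tumour points lie at 25% to 35.3% in the left panel, above all node points, and WT1 tumour alone rises to 57.4% in the right panel.

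Tumour Treg differed from node Treg in many genes of effector function, cell surface receptors, metabolism and homing. Of 8431 genes with a UMI in at least 5% of members, 527 (6.25%) passed at an adjusted p under 0.05 in a limma fit of log2(level + 0.1) over the 12 samples. Higher in tumour were 380 (4.51%) and lower 147 (1.74%), and 310 of the 527 had no overlap between the 4 tumour and 8 node samples, as had 4.54% of all genes tested. The median of all genes was 0.13 log2 above 0. Relative to that median, 301 genes were higher and 204 lower, and limma-voom on summed UMIs, where the median gene was at -0.14, called 537 higher and 347 lower. Differences on this scale understate those of low genes.

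The count of calls rested on few samples. Without WT1 19 genes passed, without WT2 none (918 at an unadjusted p under 0.05), without KO1 159 and without KO2 298, and the 527 genes kept their sign in each of these fits. Leaving out the WT1 tumour sample alone gave 281 calls. Leaving out cells with other markers gave 152 calls, and 495 of the 527 genes kept their sign. The fit without such cells kept 11 samples, with WT1 as the only WT tumour, here and for the lists below. Subtracting the myeloid marker share from tumour levels gave 156 higher and 183 lower, and 519 kept their sign. In cells thinned to 1500 UMIs 76 passed, at most 3 of any list described below, and 522 kept their sign. With at least 10 cells per sample, which keeps 7 samples, none passed (893 at an unadjusted p under 0.05).

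First by size among the genes named by rule was Gzmb, which encodes granzyme B, a protease with which cytotoxic cells, and some Treg, kill their targets. Gzmb had 73.5 and 82.5 UMIs per 10000 in KO and 45.5 and 44.4 in WT tumour Treg. In dLN Treg it had 1.14 and 8.78 in KO and 1.10 and 0.953 in WT, and in ndLN 0.456 and 1.46 in KO and 0 and 0 in WT. All tumour samples were far above all node samples, and the difference was 6.27 log2 (SE 0.375, adjusted p = 2.19e-11), with 6.75 in the first and 5.79 in the second droplet channel. Tumour myeloid cells had at most 0.156 UMIs per 10000 of Gzmb, below every tumour Treg sample. It lies on chromosome 14 from 56258838 to 56262260 on the minus strand.

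Klrg1, a lectin-like receptor of terminally differentiated effector T cells, had 5.98 and 10.4 UMIs per 10000 in KO and 4.26 and 3.09 in WT tumour Treg, against 0 to 1.18 in the node samples. It was 4.28 log2 higher (SE 0.437, adjusted p = 7.64e-07), without overlap, and 4.27 and 4.29 higher within the 2 channels. Lag3, an inhibitory receptor that binds MHC class II, had 6.98 and 4.23 in KO and 6.22 and 3.85 in WT tumours, against 0 to 1.51 in nodes, a rise of 3.79 log2 (SE 0.519, adjusted p = 2.90e-05). Levels in tumour myeloid cells were at most 0.00508 for Klrg1 and 0.0657 for Lag3. Without WT2 the adjusted p of both, and of Gzmb, was 0.0766.

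Of all genes tested 4.51% were higher and 1.74% lower in tumour, the background for the counts of each list below. Among 13 tested genes of suppressive function, 5 rose and 1 fell, with a median of 1.77 log2. Besides Gzmb these were the anti-inflammatory cytokine Il10 (2.30 log2), the secreted suppressor Fgl2 (2.21), the galectin Lgals1 (1.96) and Entpd1 (CD39), which degrades extracellular ATP (1.77). Il10 passed narrowly (limma, adjusted p = 0.0379) and in 6 of 19 alternatives, against 12 for Fgl2 and 17 for Gzmb. Il10 had 0.325 and 0.0782 UMIs per 10000 in KO and 1.5 and 3.17 in WT tumour Treg, with no UMI in any dLN sample and 0 to 0.754 in ndLN. KO and WT tumours did not overlap for it, as for 33.9% of all genes tested with 2 samples against 2, and the tumour and node ranges overlapped. Lrrc32 (GARP), which holds latent TGF-beta on the Treg surface, fell by 2.12 log2 to 0.156 to 0.651 in tumour, against 0.747 to 4.59 in nodes. Tumour myeloid cells also held Fgl2 (1.68 to 2.98), Lgals1 (12.3 to 14.7) and Entpd1 (1.23 to 2.11), and with the myeloid share subtracted 3 of the list rose and 1 fell. Without the WT1 tumour sample 2 rose and 1 fell.

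The TNF receptor family list held receptors that carry costimulatory signals and the adaptor Traf1. Of its 8 genes, 3 rose and 1 fell, with a median of 0.56 log2. Tnfrsf4 had 48.8 and 26.7 UMIs per 10000 in KO and 37.6 and 31.6 in WT tumour Treg, against 21.0, 11.6, 7.47 and 9.03 in dLN and 4.23, 11.6, 3.71 and 5.80 in ndLN of KO1, KO2, WT1 and WT2. The samples did not overlap, although KO1 dLN came close to KO2 tumour, and the difference was 2.12 log2 (SE 0.254, adjusted p = 4.52e-06). Tnfrsf9 had 42.7 and 15.7 in KO and 30.7 and 23.3 in WT tumours, against 0.368 to 7.59 in nodes, 3.37 log2 higher (SE 0.454, adjusted p = 2.60e-05). Tnfrsf18 had 22.6 and 15.3 in KO and 15.9 and 12.4 in WT tumours, against 3.93 to 9.61 in nodes, 1.52 log2 higher (SE 0.244, adjusted p = 1.97e-04). For all 3 genes tumour myeloid cells had at most 0.518. Tnfrsf25 fell by 1.79 log2, with 0 to 0.342 in tumour and 0.0869 to 1.62 in nodes, and no longer passed without the WT1 tumour sample (adjusted p = 0.0842). Cd27 and Tnfrsf1b were at -0.07 and 0.06 and did not pass. Tnfrsf4 and Tnfrsf18 lie beside each other on chromosome 4, from 156013843 to 156016612 and from 156026164 to 156028895, both on the plus strand.

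**Figure D2:**
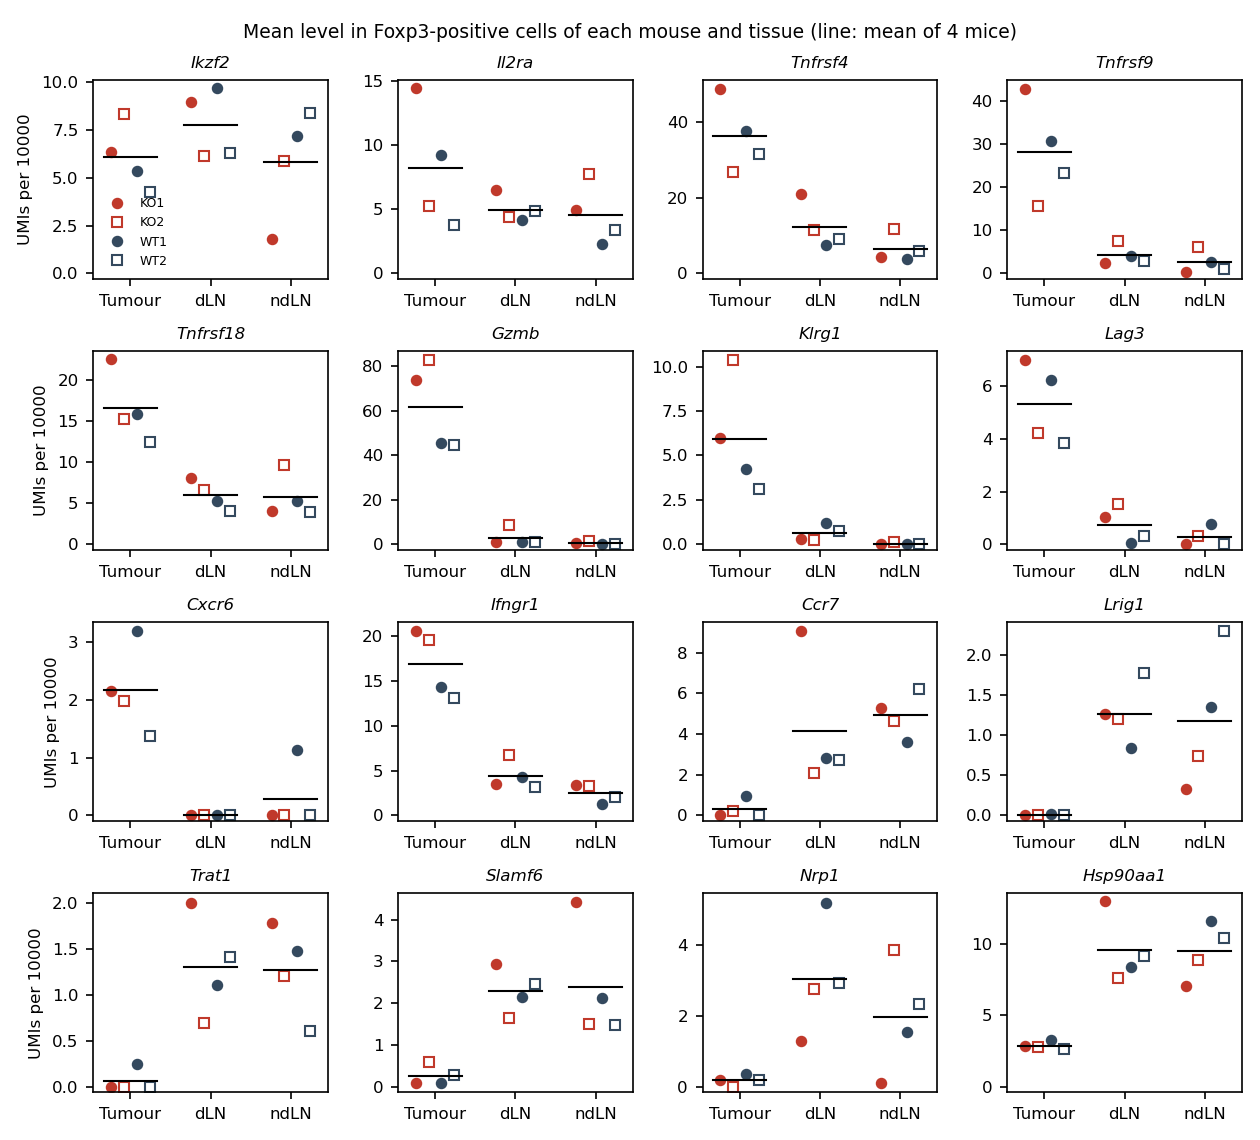
Mean level (UMIs per 10000) of 16 genes in the Foxp3-positive cells of each mouse (marker) in tumour, dLN and ndLN (x axis), with a line at the mean of 4 mice; each panel has its own linear axis. For Gzmb, Klrg1, Lag3 and the 3 Tnfrsf genes all tumour points lie above the node points, for Ccr7, Lrig1, Trat1, Slamf6 and Hsp90aa1 all lie below, and for Ikzf2 and Il2ra they overlap.

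Several genes that guide T cells through lymph nodes were lower in tumour Treg. Ccr7, the receptor for the chemokines of the T cell zone, had 0 and 0.228 UMIs per 10000 in KO and 0.968 and 0 in WT tumour Treg, against 9.05, 2.08, 2.80 and 2.73 in dLN and 5.30, 4.64, 3.63 and 6.24 in ndLN of KO1, KO2, WT1 and WT2. No tumour sample reached a node sample, and Ccr7 fell by 4.11 log2 (SE 0.491, adjusted p = 4.50e-06). Of 14 tested central and naive T cell genes, 5 fell and none rose, with a median of -1.03 log2, and without the WT1 tumour sample 1 fell. The others were the sphingosine phosphate receptor S1pr1, used to leave lymph nodes (-1.97), the transcription factors Tcf7 (-2.33) and Lef1 (-1.55), which keep T cells in an early state, and Id3 (-2.13). Tcf7 had 1.07 in KO2 tumour and 0 in the other 3 tumours, against 0.190 to 1.87 in nodes, and without the WT1 tumour sample it no longer passed (adjusted p = 0.115).

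Not every gene of that list followed. Klf2, the transcription factor that switches on S1pr1, was at -0.59 and the interleukin 7 receptor Il7r at 0.12, and neither passed.

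Of 17 tested chemokine and homing receptors, 3 rose and 5 fell, with a median of 0.49 log2, or -0.11 with the myeloid share subtracted. Without the WT1 tumour sample 2 rose and 3 fell, and Ccr2, S1pr1 and Itgae no longer passed (adjusted p 0.0762 to 0.191). Cxcr6, a receptor of tissue-resident T cells, had 2.16 and 1.98 UMIs per 10000 in KO and 3.19 and 1.38 in WT tumour Treg, no UMI in any dLN sample, and 1.14 in WT1 ndLN beside 0 in the other 3 ndLN. It was 4.00 log2 higher (SE 0.644, adjusted p = 2.01e-04). Ccr2 was 2.88 higher, with overlap, since KO2 ndLN stood at 8.34. Besides Ccr7 and S1pr1, the integrin chain Itgae (CD103) fell by 1.79, Ccr4 by 2.58 and Ccr6 by 2.91 log2. Ccr8, commonly used as a marker of tumour Treg, had 2.90 and 0.452 in KO and 4.57 and 1.74 in WT tumours, against 0 to 1.77 in nodes. Its difference of 1.08 log2 (SE 0.563) did not pass (adjusted p = 0.347).

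Genes of Treg identity split. Of 15, 3 rose and 3 fell, with a median of 0.16 log2, close to that of all genes, and without the WT1 tumour sample 2 rose and 2 fell. Ikzf2 had 6.33 and 8.34 UMIs per 10000 in KO and 5.35 and 4.27 in WT tumours, against 1.78 to 9.73 in nodes (-0.07 log2, SE 0.274, adjusted p = 0.943). Il2ra had 14.5 and 5.27 in KO and 9.26 and 3.76 in WT tumours, against 2.27 to 7.72 in nodes (0.66 log2, SE 0.293, adjusted p = 0.234). Ctla4 had 11.6 and 12.3 in KO and 18.8 and 16.2 in WT tumours, against 4.83 to 37.5 in nodes (0.16 log2, SE 0.279, adjusted p = 0.850). The ranges of all 3 overlapped.

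Within that list Tnfrsf18, Cd2 (1.05 log2) and the actin-capping protein Capg (0.93) rose. Nrp1, a semaphorin coreceptor found on thymus-derived Treg, had 0.176 and 0 in KO and 0.363 and 0.185 in WT tumours, against 1.30, 2.77, 5.20 and 2.94 in dLN and 0.114, 3.87, 1.54 and 2.34 in ndLN of KO1, KO2, WT1 and WT2. It fell by 3.0 log2 (SE 0.550, adjusted p = 8.65e-04), with KO1 ndLN in the tumour range, by 1.83 within the first channel and 4.17 within the second. Without WT1 or WT2 its adjusted p was 0.244 and 0.317. Izumo1r, the folate receptor FR4 of Treg, fell by 1.16 log2, from which WT2 tumour, at 6.92, stood apart.

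Checkpoint receptors moved in both directions. Of 11 tested, Lag3 rose and Btla (-2.24 log2) and Cd96 (-2.61) fell, with a list median of 0.65. Among all genes tested 4.51% rose and 1.74% fell. Btla had 0.0309 to 0.114 UMIs per 10000 in tumour and 0.311 to 1.45 in nodes, and Cd96 0 to 0.335 in tumour and 0.727 to 2.12 in nodes. Icos, a costimulatory receptor, was at 9.89 to 28.5 in tumour and 5.60 to 22.4 in nodes (adjusted p = 0.150), Tigit at 2.94 to 11.4 and 0.368 to 7.34 (adjusted p = 0.325), and Pdcd1 (PD-1) at 1.47 to 2.63 and 0.184 to 2.82 (1.58 log2, adjusted p = 0.0526).

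Of 12 tested effector transcription factors, 3 rose and 1 fell, with a median of 1.02 log2. Without the WT1 tumour sample only Maf passed, and Tbx21, Id2 and Batf did not (adjusted p 0.0729 to 0.0877). Tbx21 (T-bet), which drives type 1 responses, had 0.773 and 0.452 UMIs per 10000 in KO and 1.06 and 0.377 in WT tumours, against 0 to 0.220 in nodes (2.43 log2, adjusted p = 0.01). Id2 rose by 2.59 log2, with 6.41 and 1.59 in KO and 6.53 and 1.71 in WT tumours, against 0 to 1.06 in nodes, and Maf by 1.39. Batf, needed for effector Treg, had 0.413 to 1.41 in tumour and 0.894 to 3.88 in nodes, with overlap, and fell by 1.30 log2 (adjusted p = 0.0412). In cells thinned to 1500 UMIs Batf was at 0.24.

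The genes named by rule on the falling side had diverse roles. Trat1, an adaptor associated with the T cell receptor, had 0.249 in WT1 tumour and 0 in the other 3 tumours, against 0.601 to 2.00 in nodes (-3.25 log2, SE 0.500, adjusted p = 1.23e-04). Lrig1, a membrane protein that restrains growth factor receptors, had 0.0134 in WT1 tumour and 0 in the other 3, against 0.336 to 2.29 in nodes (-3.53 log2, SE 0.494, adjusted p = 3.84e-05). Slamf6, a receptor of the SLAM family, had 0.0944 and 0.592 in KO and 0.0839 and 0.274 in WT tumours, against 1.47 to 4.41 in nodes (-2.89 log2, SE 0.421, adjusted p = 5.99e-05). The rule also named the epoxide hydrolase Ephx1 (-3.12), the sialyltransferase St6gal1 (-2.95), Clec2i (-2.89), Nsg2 (-2.88) and Tagap (-2.73) among those with no overlap.

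Among 18 genes of the T cell receptor and NF-kB response, 3 fell and 1 rose, with a median of -0.64 log2, and without the WT1 tumour sample 3 fell and none rose. Cd83, an activation marker, had 0.0613 to 0.937 in tumour and 1.13 to 5.84 in nodes (-3.07 log2). Tnfaip3 (A20), which shuts off NF-kB, fell by 2.02, and the growth regulator Myc by 2.24, while Nfkb2 rose by 1.64. Myc and Nfkb2 no longer passed without the WT1 tumour sample (adjusted p 0.0529 and 0.234). Of 16 cytokine receptors, Ifngr1, the interferon gamma receptor chain, rose and both interleukin 6 receptor chains, Il6ra (-2.51) and Il6st (-1.92), fell, with a median of -0.21. These counts stand beside 4.51% higher and 1.74% lower among all genes tested. Ifngr1 had 20.5 and 19.5 in KO and 14.3 and 13.1 in WT tumours, against 1.24 to 6.74 in nodes (2.36 log2, SE 0.248, adjusted p = 9.07e-07).

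Several heat shock genes were lower in tumour. Of 13 stress and immediate early genes, 4 fell and 1 rose, with a median of -0.40 log2, and without the WT1 tumour sample 3 fell and none rose. The chaperone Hsp90aa1 had 2.86 and 2.80 UMIs per 10000 in KO and 3.25 and 2.63 in WT tumours, against 7.03 to 13.1 in nodes (-1.67 log2, SE 0.230, adjusted p = 3.21e-05), and Hspa1a fell by 3.08, Hspe1 by 1.80 and Dnajb1 by 1.26. Fos was 1.54 higher, but -0.09 in cells without other markers. Of 13 mitochondrial genes tested, 12 were lower in tumour and none higher, with differences between -2.18 and -0.98. The most abundant, mt-Co1, had 20.3 to 32.4 in tumour and 63.3 to 76.7 in nodes. In cells thinned to 1500 UMIs none of the 13 stress genes passed, with a median of -0.36, and Hspa1a was at -2.84 (limma, adjusted p = 0.236). In cells without other markers the median of these stress genes was -0.43. Depth also differed between the tissues, as given above, and its part in the heat shock and mitochondrial differences was not tested beyond the thinned fit.

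Most interferon-induced genes were higher in tumour Treg. Of 16, 11 rose and none fell, with a median of 1.76 log2. Ly6a (Sca-1) had 63.1 and 55.5 UMIs per 10000 in KO and 62.9 and 49.4 in WT tumours, against 1.77 to 22.5 in nodes (2.82 log2, SE 0.347, adjusted p = 5.66e-06). Ifit1 rose by 3.37, Bst2 (tetherin) by 1.77, Ifi27l2a by 1.73, Isg15 by 1.36 and the transcription factor Irf1 by 1.34, the last 4 with overlap. The myeloid share was higher in tumour as well. Tumour myeloid cells held 14.9 to 31.2 of Ly6a, below every tumour Treg sample, and 4.47 to 8.21 of Isg15, within the range of 2.45 to 12.6 in tumour Treg. With the myeloid share subtracted 7 of 16 rose, without the WT1 tumour sample 4, in thinned cells 1, and in cells without other markers none passed, with a median of 1.98.

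Most genes of the glycolysis and hypoxia list, which includes Bnip3 and Mif, rose. Of 15, 11 rose and none fell, with a median of 1.75 log2, against 6.25% of all genes called. In cells thinned to 1500 UMIs 1 passed, with a median of 1.65 and 14 of 15 above 0, without the mouse WT1 3 passed and without WT2 none. Aldoa (aldolase) had 23.2 and 17.2 UMIs per 10000 in KO and 21.5 and 24.7 in WT tumours, against 3.09 to 6.54 in nodes (2.08 log2, SE 0.233, adjusted p = 2.37e-06). Tpi1 rose by 3.47, Gapdh by 1.75 and Ldha, which makes lactate, by 1.55, each with no overlap. Tumour myeloid cells held 23.3 to 27.9 of Aldoa and 18.0 to 19.2 of Ldha, in the range of tumour Treg. With the myeloid share subtracted 9 of 15 rose, with a median of 1.44, without the WT1 tumour sample 8, and in cells without other markers 5, with a median of 1.94. The glucose transporter Slc2a1, at 1.64 log2, did not pass (adjusted p = 0.139). None of 13 tested proliferation genes passed, with a median of -0.33, and Mki67 had 0.0974 to 0.631 in tumour and 0 to 2.39 in nodes.

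**Figure D3:**
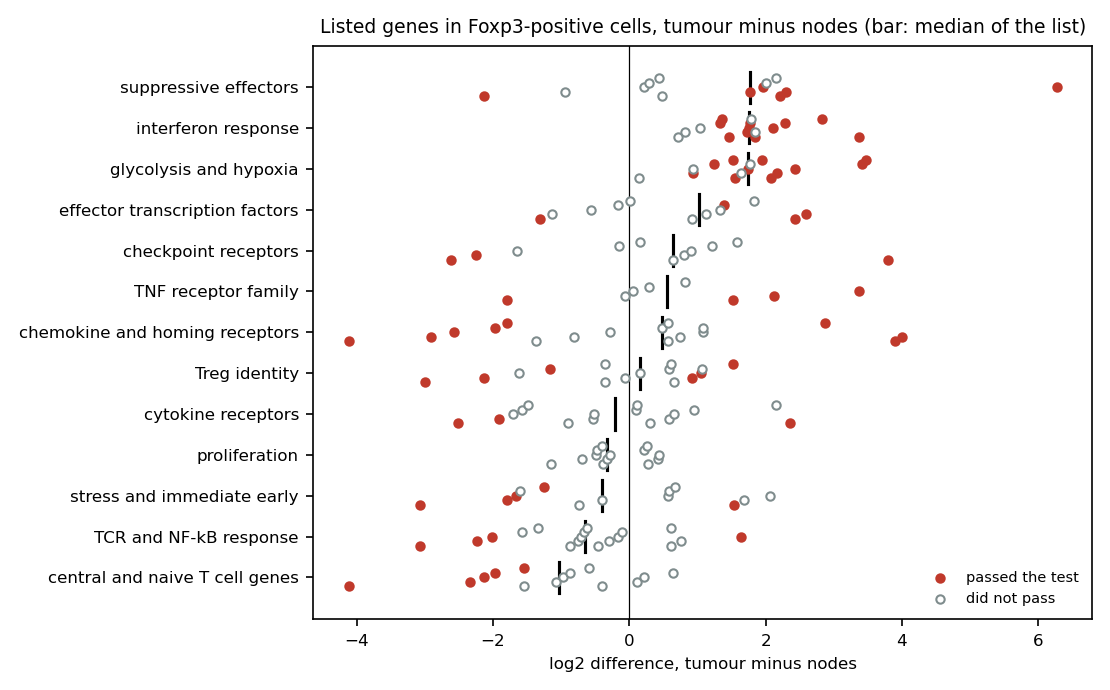
Log2 difference, tumour minus nodes (x axis), of each tested gene of 13 lists in Foxp3-positive cells, filled where it passed the test, with a bar at the median of the list. The interferon list and the glycolysis and hypoxia list lie on the right with 11 filled points each, central and naive genes on the left with 5, and other lists have filled points on both sides.

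Genes of macrophages were the other large group on the rising side. Of the 12 genes named by rule as higher, C1qb, C1qc, C1qa, Lyz2, Tgfbi, Fcer1g, Ifitm3 and Apoe were higher in tumour myeloid cells than in tumour Treg. Lyz2 had 3.68 and 10.4 UMIs per 10000 in KO and 10.8 and 26.2 in WT tumour Treg, against 0 to 0.687 in nodes, and 90.6 to 102 in tumour myeloid cells. It was 5.11 log2 higher (SE 0.578, adjusted p = 2.39e-06), and -0.33 with the myeloid share subtracted. Ifitm1 and AA467197, which completed the list of 12 beside Gzmb and Klrg1, likewise had more in myeloid cells, 8.02 to 11.7 and 7.87 to 10.1, than in any tumour Treg sample. With no UMI in nodes, AA467197 met the detection filter through tumour Treg alone. It was at least 40.4-fold higher in tumour Treg, taking 3 counts over all node Treg as the floor. Whether Treg themselves express these genes was not tested.

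**Figure D4:**
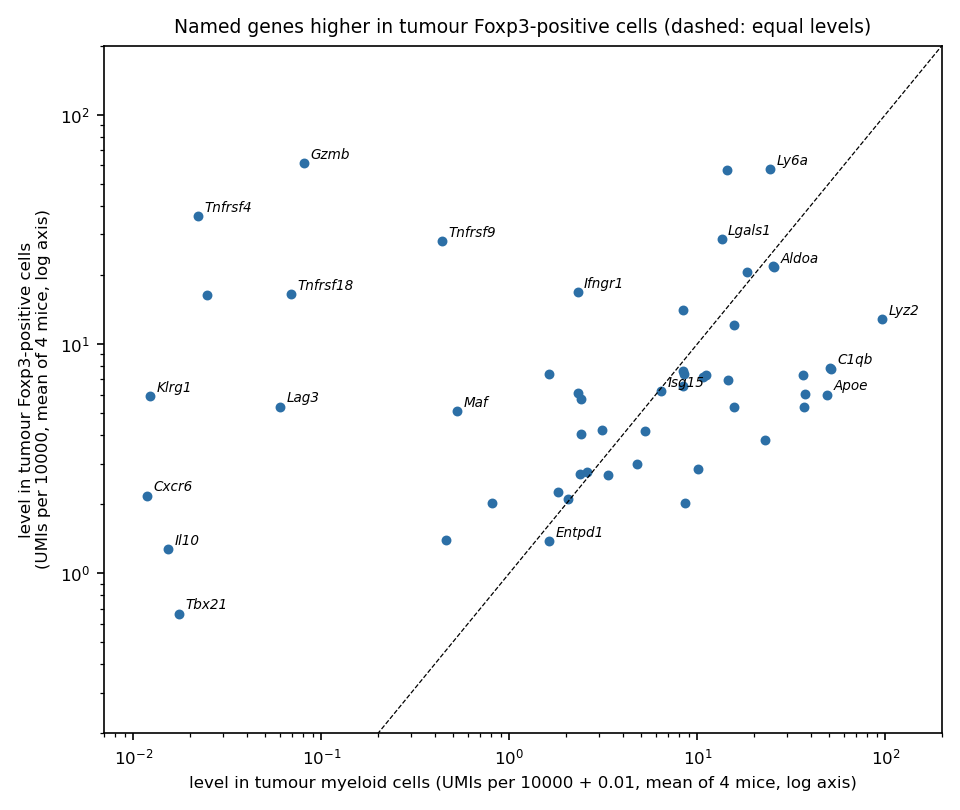
Level of each named gene that was higher in tumour, in tumour myeloid cells (x axis, log scale, with 0.01 added) and in tumour Foxp3-positive cells (y axis, log scale), as means of 4 mice in UMIs per 10000; the dashed line marks equal levels. Gzmb, Tnfrsf4, Tnfrsf18, Klrg1, Lag3 and Cxcr6 lie at the far left, with under 0.1 in myeloid cells, and Lyz2, C1qb and Apoe lie right of the line.

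Per cell, Gzmb and Tnfrsf9 were found in most Treg of each tumour, and Klrg1 in 28.6% to 73.3%. After thinning to 1500 UMIs, Gzmb had a UMI in 93.3% and 75% of 15 and 8 Treg in KO tumours and 79.3% and 57.1% of 58 and 7 in WT tumours. In dLN these shares were 8.33% and 7.69% in KO and 15% and 16.7% in WT, and in ndLN 1 Treg of KO1 had a Gzmb UMI and none in the other 3 mice. Every tumour share lay above every node share, beside 0.0786% of 2544 B cells. With all UMIs the shares were 71.4% to 100% in tumours and 0% to 30.8% in nodes. Tnfrsf9 had a UMI in 62.5% to 93.3% of thinned Treg in tumours and 10% to 46.2% in nodes. Klrg1 had one in 73.3% and 62.5% in KO and 36.2% and 28.6% in WT tumours, against 0% to 10% in nodes. In ndLN no thinned Treg of 33 had a Klrg1 UMI, and 1 had one with all UMIs. Ccr7, which B cells also use (48.9% of them), had one in 0% to 12.5% in tumours and 16.7% to 50% in nodes.

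The draining and the non-draining node were compared next. Of 8431 genes 1 passed (0.0119%), Gzmb, with 1.14, 8.78, 1.10 and 0.953 UMIs per 10000 in dLN and 0.456, 1.46, 0 and 0 in ndLN of KO1, KO2, WT1 and WT2 (2.66 log2, SE 0.433, adjusted p = 0.0149). It was higher in dLN of each of the 4 mice, while the groups overlapped because KO2 ndLN exceeded 3 of the dLN samples. Gzmb had a UMI in 11 of 60 dLN and 3 of 33 ndLN Treg, so few cells carry the value, and it passed in 6 of 17 alternatives (adjusted p 5.32e-06 to 0.902). Without WT1, WT2 or KO2 its adjusted p was 0.803, 0.772 and 0.259. Klrg1 had 0.299, 0.24, 1.18 and 0.775 in dLN and 0, 0.152, 0 and 0 in ndLN, without overlap, as for 2.95% of all genes, but did not pass (2.31 log2, adjusted p = 0.359). At an unadjusted p under 0.05 there were 616 genes, limma-voom called none, and a fit with the mouse as a block called 2.

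KO and WT Treg of the nodes differed in 3 of 8431 genes (0.0356%), with dLN and ndLN weighted equally. Zfp36 (tristetraprolin), which degrades cytokine mRNAs, had 4.61 and 6.07 UMIs per 10000 in dLN and 3.49 and 8.74 in ndLN of KO, against 1.41 and 2.29 in dLN and 0.303 and 1.17 in ndLN of WT. No KO sample overlapped a WT sample, as for 2.59% of all genes, and it was 2.24 log2 higher (SE 0.365, adjusted p = 0.0150), with 2.40 and 2.09 within the 2 channels. Nkg7, a protein of cytotoxic granules, had 0.0417 and 0 in dLN and 0 and 0 in ndLN of KO, against 0.642 and 3.03 in dLN and 4.49 and 0.289 in ndLN of WT. It was 3.71 log2 lower (SE 0.650, adjusted p = 0.0232), with UMIs in 6 of 60 dLN and 6 of 33 ndLN Treg. Gzmb was 2.39 log2 higher in KO (SE 0.433, adjusted p = 0.0256), with overlap, 1.26 in the first channel and 3.52 in the second.

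These 3 calls were not stable. With 1 value per mouse, the mean of both nodes, no gene passed (372 at an unadjusted p under 0.05, limma), and the adjusted p of each of the 3 was 0.916. Zfp36 passed in 5, Nkg7 in 4 and Gzmb in 5 of 18 alternatives, and without any 1 of the 4 mice Zfp36 and Nkg7 no longer passed (adjusted p 0.190 to 0.761). Adjusted p for Gzmb was 0.00373 without KO1 and 0.518 to 0.983 without each other mouse. The 2 node samples of KO2 also had the highest sums of dendritic cell markers, whose part was not tested. Limma-voom called 1 gene, none of these 3, and 601 genes had an unadjusted p under 0.05.

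In tumour no gene passed between KO and WT Treg (0.0%), with 250 at an unadjusted p under 0.05 and none by limma-voom. Mean per-cell logs gave 2 higher and 5 lower, and thinned cells 4 higher and 26 lower. In cells without other markers WT1 was the only WT tumour left, so no calls are given for that fit. The smallest p-values belonged to Rln3 (relaxin 3), Ccdc184 and Icmt among higher and Emilin2, Ccl9 and Ms4a7 among lower genes. Rln3 had 5.13 and 4.57 UMIs per 10000 in KO tumours and 0.662 and 0 in WT tumours, a difference of 4.16 log2 (SE 1.03) with an adjusted p of 0.702. The myeloid marker sum was lower in both KO tumours than in both WT tumours, as given above, and Ccl9 and Ms4a7, which had 1.27 to 2.15 and 4.96 to 11.2 in tumour myeloid cells, were lower with it. The part of the myeloid markers in this was not tested. Havcr2 itself had 0.0487 and 0 in KO tumour Treg and 1.29 and 0.610 in WT tumour Treg, without overlap, as for 33.9% of all genes, a difference of -3.03 log2 (SE 0.923) that did not pass. In node Treg Havcr2 was 0 to 0.0417 in KO and 0 to 0.384 in WT. Tumour myeloid cells held 0.137 to 0.873 of it.

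The tumour-node difference of Treg was then set against that of Foxp3-negative CD4 T cells, 651 cells, and CD8 T cells, 2134 cells, with a test of the difference between differences. Against CD4 T cells 27 genes passed (0.32%), 13 with a higher and 14 with a lower difference in Treg, and 48 with the mouse as a block. Relative to the median gene 10 were higher and 26 lower, and limma-voom gave 46 higher and 254 lower. Tumours gave 42 of these CD4 T cells, 6 to 19 a sample. Among tumour T cells without Foxp3, Cd8b1 and Cd79a, with or without Cd4, 16 had both Ikzf2 and Il2ra. How many of the CD4 T cells were Treg without a Foxp3 UMI was not tested. Macrophage and monocyte markers summed to 21.0, 23.7, 45.6 and 83.0 UMIs per 10000 in tumour Treg of KO1, KO2, WT1 and WT2, against 186.3, 128.1, 123.6 and 143.4 in the CD4 T cells of the same tumours. In cells without other markers 25 of the 27 genes kept their sign. The lysosomal genes Lgmn, Ctss, Psap and Man2b1, together with Emb and Rgs1, had lower differences in Treg. In cells without other markers Lgmn and Ctss were at 1.40 and 0.02, against -3.47 and -2.05 in all. Man2b1, Psap, Rgs1 and Emb were at -1.24, -1.69, -3.50 and -2.95 there, against -2.33, -1.96, -2.15 and -2.06 in all. The fit in cells without other markers kept 18 of 24 samples, with a single tumour mouse, so no calls are given for it.

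Prf1 and 6 mitochondrial genes were among the other genes that differed from CD4 T cells. Prf1, the pore-forming perforin, was 2.94 ± 1.24 log2 higher in tumour in Treg and -0.81 ± 0.320 in CD4 T cells (SD, n = 4 mice), a difference of 3.74 (SE 0.565, adjusted p = 0.00126). It had 0.467 and 2.15 UMIs per 10000 in KO and 0.979 and 0.193 in WT tumour Treg, against 0 to 0.0379 in node Treg, and no UMI in tumour CD4 T cells. Prf1 was chosen after its values were seen. With at most 0.0379 in node Treg, it met the detection filter mainly through tumour Treg. Cystm1 was 3.30 ± 0.812 and 0.72 ± 0.716 log2 higher (difference 2.58, adjusted p = 0.0132), and Grap, an adaptor related to Grb2, 0.76 ± 0.462 and -2.19 ± 1.58 (2.95, adjusted p = 0.0307). In cells without other markers, with a single tumour mouse left, the difference was 3.77 for Cystm1 and 0.98 for Grap. The mitochondrial mt-Co1 was lower in tumour in Treg (-1.44 ± 0.235) and at 0.56 ± 0.510 in CD4 T cells, a difference of -2.0 (SE 0.249, adjusted p = 1.11e-04), and mt-Atp6, mt-Atp8, mt-Co2, mt-Co3 and mt-Nd5 passed in the same direction. In cells without other markers, again with a single tumour mouse, these 6 were at -2.33 to -0.93 log2. By limma-voom in all cells mt-Co1 alone of them passed. Gzmb, at 6.27 ± 1.23 in Treg and 3.30 ± 4.37 in CD4 T cells, did not pass (adjusted p = 0.447), nor did Tnfrsf4, Tnfrsf9 or Lag3.

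Against CD8 T cells 64 genes passed (0.759%), 17 with a higher and 47 with a lower difference in Treg, or 26 and 593 by limma-voom. Macrophage and monocyte markers summed to 79.8, 56.4, 55.1 and 136.2 in CD8 T cells of KO1, KO2, WT1 and WT2 tumours. Klrg1 was 4.28 ± 0.887 log2 higher in tumour in Treg and 1.45 ± 0.326 in CD8 T cells (SD, n = 4 mice; difference 2.84, adjusted p = 0.00420), with 0.133 to 0.339 in tumour CD8 T cells. Cystm1 had 1.57, 0.347, 0.959 and 1.10 in tumour Treg of KO1, KO2, WT1 and WT2, no UMI in any node Treg and at most 0.0607 in tumour CD8 T cells (difference 2.89, SE 0.419, adjusted p = 4.94e-04), and was at least 19.9-fold higher in tumour than in node Treg. Having no UMI in node Treg, Cystm1 met the detection filter through tumour Treg alone, so its test is not independent of that filter. Asb2, Pcyt1a, Itgb7 and Npc2 were also on the higher side.

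The lower side was led by a semaphorin coreceptor and included the checkpoint receptor PD-1. Nrp1 was -3.0 ± 1.69 log2 in Treg and 2.12 ± 0.537 in CD8 T cells, a difference of -5.12 (SE 0.724, adjusted p = 4.52e-04), and against CD4 T cells the difference was -3.57 (adjusted p = 0.0287). The difference from CD4 T cells passed in 8 of 15 alternatives and not without WT1, WT2 or KO2. In cells without other markers, with a single tumour mouse left, it was -4.89. Pdcd1 was 1.58 ± 0.737 in Treg and 4.6 ± 1.03 in CD8 T cells (difference -3.02, adjusted p = 0.0340), with 1.34 to 8.97 UMIs per 10000 in tumour CD8 T cells and 1.47 to 2.63 in tumour Treg. Rgs1, a regulator of G protein signalling, was 0.25 ± 0.833 in Treg and 3.01 ± 0.286 in CD8 T cells (difference -2.76, adjusted p = 0.00156), and Sh2d2a, a T cell adaptor, -0.16 ± 0.695 and 2.57 ± 0.496 (difference -2.73, adjusted p = 8.38e-05). Trat1 was -3.25 ± 0.960 in Treg and -0.42 ± 1.34 in CD8 T cells (difference -2.83, adjusted p = 0.0372), and Ccr6 was -2.91 ± 0.514 and -0.14 ± 0.151 (difference -2.77, adjusted p = 0.00580). Rgs16, Nrn1, Lta, Lgmn, Dusp4 and Slc4a7 were also lower on this side, as were Il18rap and Cd44 of the lists. Gzmb was 6.27 ± 1.23 in Treg and 5.42 ± 1.69 in CD8 T cells, and the difference of 0.85 log2 did not pass (adjusted p = 0.794). Counts without each mouse lay between 9 and 22 against CD8 and between 1 and 42 against CD4 T cells.

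**Figure D5:**
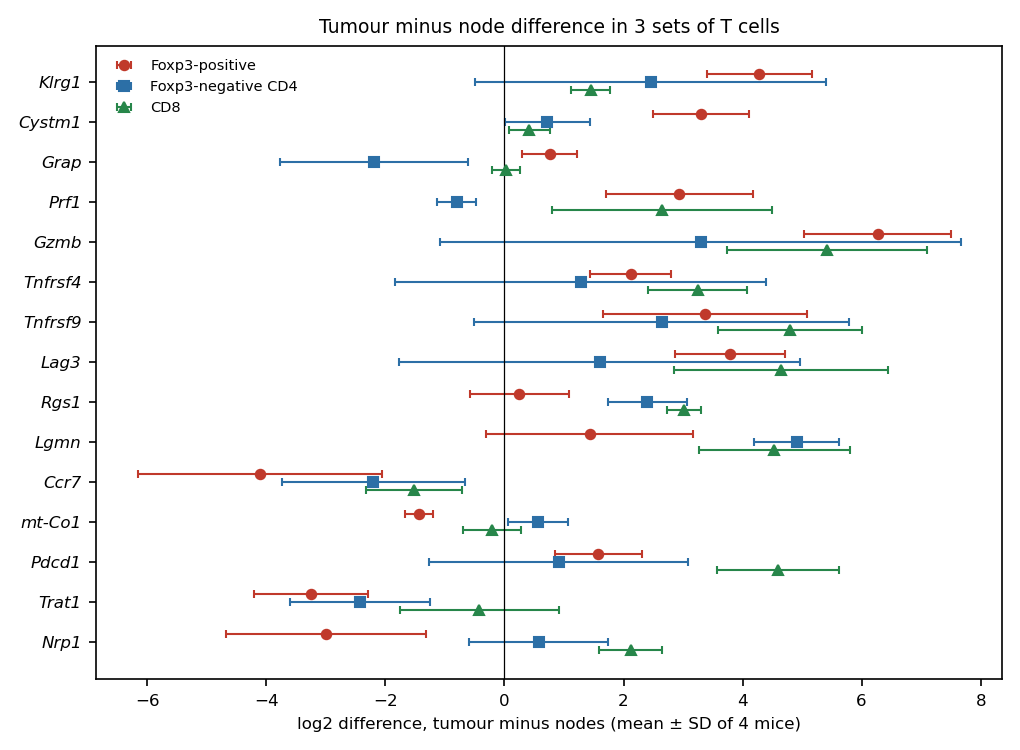
Tumour minus node log2 difference (x axis) of 15 genes in Foxp3-positive (circles), Foxp3-negative CD4 (squares) and CD8 T cells (triangles), as mean ± SD of 4 mice. Klrg1 and Cystm1 lie further right in Foxp3-positive than in CD8 T cells, Nrp1, Pdcd1 and Rgs1 further left, and the 3 sets overlap for Gzmb, Tnfrsf9 and Lag3.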

How the data were processed

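Cells of 4 mice were sequenced in 2 droplet channels. Cell Ranger 3.0.2 and the build mm10 were used, per the submitters' processing notes, and no source used here says how tags were assigned, cells filtered and doublets handled. What the authors deposited is the natural log of 1 plus a gene's UMIs per 10000 in that cell, over 12638 genes and 12458 cells, beside a table of mouse and tissue. All values (100%) came out as whole UMIs within 0.01, and these UMIs were used. No cell was removed and no doublet caller was run.

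Levels were averaged per mouse and tissue over cells on the linear scale, since depth differed between tissues, and log2(level + 0.1) was fitted by limma 3.58.1 under R 4.3.3 (with a trend; 1 fit of 6 genotype and tissue groups, samples of at least 5 cells), adjusted by Benjamini-Hochberg at 0.05 over 8431 genes with a UMI in at least 5% of members. The 4 genes of the rule were left out. Node samples were weighted equally. A run of the fit on simulated counts, drawn without an effect of mouse or of myeloid RNA, cannot show how it performs on these data. Tumour myeloid cells had at least 3 macrophage or monocyte markers and neither Cd3e nor Cd79a. B cells were those with Cd79a and without Cd3e. Floors take 3 counts, and intervals are exact (Clopper-Pearson, 95%); both cover counting error only. Python 3.11.15 and scipy 1.17.1 gave the permutation tests.

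Members and the 13 lists were chosen with earlier results of these data known. Named genes are, per comparison, up to 12 in each direction with adjusted p under 0.05, a mean above the median gene and no overlap, list members that passed, markers of the label, Havcr2, and where fewer than 5 passed the 3 smallest p-values each way. Tissues with the same number came from the same mouse. Deviations of same-mouse samples from tissue means correlated at -0.0256 to 0.0661 over 12 pairs, beside -0.0629 to 0.0561 for different mice. A few genes counted in the lists are not reported here. No gamma delta T cell marker was in the matrix. Alternatives changed the pseudocount (0.05, 0.5), detection filter (none, 10%), cells per sample (10, 20), scale, thinning, cell filters, block and mice.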

Additional observations from a re-analysis of the deposited data

Results flagged for a closer look

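Among 153 sets of 4 mice tested for 1 value far from the other 3, 23 had one. Chance gives about 1 in 20 for continuous values. A set with 3 values of 0 and 1 above 0 is always flagged, as for Lrig1, Trat1 and Ccr6 in tumour. The count of 23 thus cannot be set against that rate. WT1 tumour also held 58 Treg, against 15, 8 and 7 in KO1, KO2 and WT2 tumours. In tumour Treg, WT1 stood apart for 5 genes that were at or near 0 in the other tumours. These were Lrig1 (0.0134 UMIs per 10000), Trat1 (0.249), Ccr6 (0.0153), Clec2i (0.0685) and Cd83 (0.937). WT2 stood apart for St6gal1 (0.0617) and Izumo1r (6.92), and KO2 for Tcf7 (1.07). The WT1 tumour share of 57.4% before thinning also stood apart.

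In dLN, KO2 stood apart for Gzmb (8.78) and Fcer1g (2.00), KO1 for Ccr7 (9.05), WT1 for Havcr2 (0.276), C1qb (0.789) and Ifitm1 (0.0864), and WT2 for C1qa (0.281). In ndLN, WT1 stood apart for Havcr2 (0.384), C1qa (0.825), Tgfbi (0.202), Cxcr6 (1.14) and Nkg7 (4.49), WT2 for C1qc (0.236) and KO2 for Klrg1 (0.152).

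The tumour-node difference of Treg differed from that of Foxp3-negative CD4 T cells in 27 genes, by the limma test of the difference itself. Higher in Treg were Grap (2.95 log2, and 0.98 in cells without other markers) and Cystm1 (2.58, and 3.77). Lower were Lgmn (-3.47), Man2b1 (-2.33), mt-Nd5 (-2.24), Rgs1 (-2.15), Emb (-2.06), Ctss (-2.05), mt-Co1 (-2.0), Psap (-1.96), mt-Atp8 (-1.74), mt-Co3 (-1.61), mt-Atp6 (-1.58) and mt-Co2 (-1.46). In cells without other markers, with a single tumour mouse left, Lgmn was at 1.40 and Ctss at 0.025, and the other lower genes kept their sign. Tumour CD4 T cells held more macrophage and monocyte marker UMIs than tumour Treg, as given above.

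From CD8 T cells it differed in 64 genes. Higher in Treg were Cystm1 (2.89 log2), Klrg1 (2.84), Asb2 (2.52), Pcyt1a (2.35), Itgb7 (1.21) and Npc2 (0.95). Lower were Nrp1 (-5.12), Rgs16 (-4.60), Nrn1 (-3.84), Lta (-3.60), Lgmn (-3.10), Dusp4 (-3.05), Pdcd1 (-3.02), Slc4a7 (-2.94), Trat1 (-2.83), Ccr6 (-2.77), Rgs1 (-2.76) and Sh2d2a (-2.73).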

How the results depend on the processing

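Counts of genes that passed between tumour and node Treg were 527, and moved to 884 with limma-voom, 76 in thinned cells, 152 without cells with other markers, 213 with Foxp3 at 2 UMIs or more, 206 with Cd4 above 0, 0 with at least 10 cells per sample, 0 to 298 without each mouse, and, in alternatives chosen after seeing the data, 281 without the WT1 tumour sample and 339 less the myeloid marker share. The fit without cells with other markers kept WT1 as the only WT tumour. Mean per-cell logs gave 601 higher and 94 lower. Between dLN and ndLN the count of 1 became 2 with the mouse as a replicate block, 3 with Cd4 above 0 and 0 with a pseudocount of 0.5, no detection filter, at least 10 cells, per-cell logs, limma-voom, thinning, cells without other markers and Foxp3 at 2 UMIs, and was 0 to 1 without each mouse. Between KO and WT node Treg the count of 3 became 1 with a pseudocount of 0.5, per-cell logs and limma-voom, 0 with no detection filter, at least 10 cells, thinning, cells without other markers, Foxp3 at 2 UMIs, Cd4 above 0 and, chosen after seeing the data, 1 value per mouse, and 0 to 2 without each mouse. In tumour the count of 0 became 7 with per-cell logs and 30 in thinned cells, and without other markers WT1 was the only WT tumour left. Against CD4 T cells the count of 27 became 48 with the block, 81 with a pseudocount of 0.5, 0 with at least 10 cells, 220 with per-cell logs, 300 with limma-voom, 13 in thinned cells and 1 to 42 without each mouse. Against CD8 T cells the count of 64 became 101 with no detection filter, 10 with at least 10 cells, 99 with per-cell logs, 619 with limma-voom, 11 in thinned cells and 9 to 22 without each mouse. Causes were not tested, except that fewer mice or cells leave fewer degrees of freedom by construction.

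The Treg share difference of 26.0 points was 40.1 with Cd4 above 0, where 3 mice had T cells left, 26.0 in the paired test with the block, and 23.7 to 27.7 without each mouse. These designs cannot reach 0.05. The share difference was 13.2 points at 1000 UMIs and 31.5 at 2500. Values that changed sign were Lyz2 (-0.33 less the myeloid share), Fos (-0.092 without other markers), Batf (0.24 thinned), Ikzf2 (0.16 per-cell logs, 0.36 thinned, 0.24 without other markers), Gzmb (-0.38) and Gpm6b (0.43) between KO and WT nodes with Foxp3 at 2 UMIs, Gpm6b with Cd4 above 0 (0.11), Havcr2 in nodes without WT1 (0.13, and -1.97 without WT2), Ccdc184 (-0.020) and Icmt (-0.55) between tumours in thinned cells, and Lgmn (1.40) and Ctss (0.025) against CD4 T cells without other markers. A minimum of 20 cells per sample could not be fitted. Besides the counts above, the mouse block moved no count over all genes by over 1.5 times. Within lists, between tumour and nodes, it called 5 effector transcription factors higher against 3, 2 cytokine receptors higher and 4 lower against 1 and 2, 2 checkpoint receptors higher against 1, and 3 stress genes higher against 1. Few cells per sample, down to 6, limit every level of a rare gene.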
